A study of Mus musculus with 8 samples.

Results

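Astrocyte identity genes are the transcripts by which an astrocyte is usually recognised, and 10 of them were followed here: Gfap, S100b, Aqp4, Slc1a2, Slc1a3, Aldh1l1, Gja1, Glul, Sox9 and Aldoc. They were picked by gene symbol from the 54146 genes quantified in every library, and all 10 were present in each of the 8 libraries and passed the filter on low counts in every comparison. The cells were primary astrocytes cultured from neonatal mouse cortex (C57BL/6). All groups carried a puromycin-selected lentiviral shRNA and had been depleted of CD11b-positive microglia after shaking meant to detach microglia and cells of the oligodendrocyte lineage. Control KD cells received a non-silencing shRNA and GSTM1 KD cells an shRNA against Gstm1, a glutathione S-transferase of the mu class. Cells of both kinds were harvested either without stimulation (basal) or 6 h after TNF-α was added at 50 ng/ml. Each of the 4 groups had 2 biological replicates. The comparisons ask how the knockdown alters these genes in either state, how TNF-α alters them, and whether the TNF-α response differs between knockdowns.

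Astrocytes support neurons by clearing glutamate and potassium from the extracellular space, by exchanging metabolites through gap junctions, and by lining blood vessels with end-feet rich in water channels. The listed genes cover these tasks. Gfap and S100b encode the intermediate filament of astrocytes and a small calcium-binding protein. Aqp4 is the water channel of the end-foot, and Gja1 encodes connexin 43, the main astrocyte gap junction protein. Slc1a2 and Slc1a3 are the glutamate transporters GLT-1 and GLAST, and Glul, glutamine synthetase, turns the captured glutamate into glutamine. Aldh1l1 is a cytosolic folate enzyme, Aldoc a brain isoform of the glycolytic enzyme aldolase, and Sox9 a transcription factor that drives glial fate. Gfap is also a classical marker of reactive astrocytes.

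The libraries held 17349676 to 34434633 expected counts each, the read counts that the authors' quantifier assigned to genes, with a count in 19371 to 21557 genes. The knockdown was visible in the target. Gstm1 stood at 231 and 377 CPM, the count scaled to library size by TMM, in the control KD basal libraries and at 29.0 and 31.4 in the GSTM1 KD basal libraries. After TNF-α the values were 209 and 391 against 24.3 and 23.3. The log2 fold changes were -3.33 ± 0.26 (SE, n = 2 per group, edgeR adjusted p = 0.0132) and -3.68 ± 0.31 (adjusted p = 0.0098). The only statement on the replicates is that they were biological, so the p-values here measure the spread between 2 cultures per group. The library kit keeps strand, but whether strand was used in counting is not given in the sources used here.

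TPM, a transcript level scaled to both length and library size so that genes can be compared with each other, ranked the genes over the 8 libraries. Gfap was highest at 2258 ± 1268 TPM (SD over all 8 libraries, groups pooled), followed by Aqp4 at 446 ± 149, Glul at 372 ± 132 and Slc1a3 at 347 ± 58.3. Gja1 at 171 ± 24.0, Aldh1l1 at 152 ± 75.8 and Sox9 at 103 ± 37.3 TPM lay in the middle. Aldoc at 74.7 ± 39.4, Slc1a2 at 51.2 ± 14.3 and S100b at 7.47 ± 4.23 TPM closed the order. Of the 9 pairs of neighbours in this order, only 2 did not overlap in their ranges over the libraries, Slc1a3 above Gja1 and Slc1a2 above S100b. Within each of the 8 libraries Gfap also exceeded Aqp4, by 2.06-fold to 9.95-fold, so that their ranges met only across libraries. Each of the other 6 pairs changed its order in at least 2 of the 8 libraries. The transporter Slc1a3 thus stood well above its relative Slc1a2 in every library, at 269 to 435 against 29.5 to 73.4 TPM, and S100b was the lowest gene of the list in every library.

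The replicates of control KD differed widely in several of these genes in both states. Gfap reached 707 TPM in control KD replicate 1 and 2206 in replicate 2 at baseline, and 651 and 2016 after TNF-α. In GSTM1 KD it was 2333 and 4184 at baseline and 2143 and 3828 after TNF-α. Replicate 2 of control KD was therefore close to replicate 1 of GSTM1 KD, and the low values of Gfap came from replicate 1 of control KD. In each state the lowest values of Aldoc, Aldh1l1, Glul and Slc1a2 came from that replicate too. So did those of Aqp4 and Slc1a3, but there control KD replicate 2 lay above the GSTM1 KD libraries. For Sox9 it was control KD replicate 2 that lay far from the rest at baseline. Aldoc showed the widest gap, 3.53-fold between the control KD replicates at baseline and 3.54-fold after TNF-α in CPM. For Gfap the ratio was 3.09 and 3.14, for Aldh1l1 2.85 and 2.63, and for Aqp4 2.33 and 2.21. These 4 genes differed by more than 1 on the log2 scale between the control KD replicates in both states, and 0 of the 10 did so between the GSTM1 KD replicates. Over all 15332 genes tested, 5.97% differed by that much between the control KD replicates at baseline and 6.92% after TNF-α, and 3.17% and 3.5% between the GSTM1 KD replicates. The median absolute log2 difference between replicates was 0.82 and 0.87 for the 10 genes in control KD, against 0.21 and 0.19 in GSTM1 KD, and 0.24, 0.23, 0.15 and 0.15 for all genes in control KD basal, control KD TNF-α, GSTM1 KD basal and GSTM1 KD TNF-α. Comparisons below are given with and without the control KD replicate 1 libraries where these decide the value. A fit of a state without 1 library leaves its group with a single library, so that the spread comes from the other group alone and the lone library is assumed to vary like it. A fit of all groups with neither control KD replicate 1 library takes the spread from both GSTM1 KD groups.

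**Figure D1:**
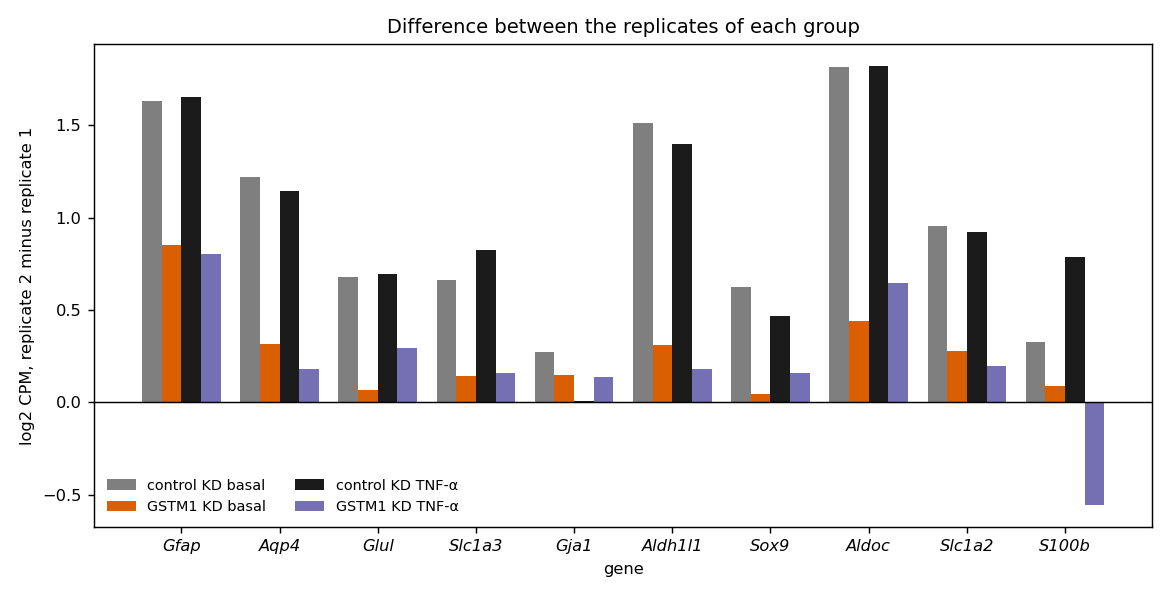
Bars show the difference in log2 CPM between replicate 2 and replicate 1 (vertical axis) for each of the 10 genes (horizontal axis) in each group. The control KD bars exceed 1 for Gfap, Aqp4, Aldh1l1 and Aldoc in both states, while no GSTM1 KD bar does, and only S100b in GSTM1 KD after TNF-α lies clearly below 0.

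S100b was the only gene of the list that edgeR called between the knockdowns in the fit without a replicate block, in either state. It lies at chr10:76253853-76261159 (GRCm38, plus strand) and has 1 transcript in the files, of 1484 bases. At the basal level it stood at 10.01 and 12.8 TPM in control KD against 4.23 and 4.52 TPM in GSTM1 KD. After TNF-α it stood at 7.90 and 13.6 TPM in control KD against 4.01 and 2.74 TPM in GSTM1 KD. The GSTM1 KD libraries were below both control KD libraries in either state, and these levels rest on modest counts: 261 and 237 against 69 and 63 at baseline, and 135 and 168 against 63 and 34 after TNF-α. S100b fell by 1.44 ± 0.23 on the log2 scale at baseline (SE, edgeR adjusted p = 0.0269), a 2.72-fold lower level, and by 1.71 ± 0.37 after TNF-α (adjusted p = 0.0387), a 3.28-fold lower level. Among all genes, 5.62% of 14899 were called lower at baseline and 8.92% of 14593 after TNF-α, so 1 of 10 is near that background. Without control KD replicate 1 the log2 change of S100b was -1.60 and -2.06, and it remained called. Without GSTM1 KD replicate 1 or 2 it was -1.40 and -1.496 at baseline and -2.03 and -1.46 after TNF-α, with adjusted p between 0.113 and 0.208. In these fits, which left 1 GSTM1 KD library, calls over all genes fell to 1 and 3 at baseline and to 0 and 94 after TNF-α.

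S100b is also made by cells of the oligodendrocyte lineage, and markers of that lineage, which the shaking was meant to remove, moved with it. Olig2, a transcription factor of that lineage, was at 122 and 150 CPM in control KD against 75.9 and 75.7 in GSTM1 KD at baseline, a fall of 0.85 ± 0.13 on the log2 scale (adjusted p = 0.0251). After TNF-α Olig2 fell by 1.14 ± 0.10 (adjusted p = 0.0101), and Olig1, its close relative, by 0.44 ± 0.11 (adjusted p = 0.0497). The other listed S100 genes, 7 calcium-binding relatives of S100b, held 0 called of 7 tested in either state by edgeR and by DESeq2. By edgeR 4.6% of all genes were called higher and 5.62% lower at baseline, and 7.26% and 8.92% after TNF-α. By DESeq2 these shares were 8.26% and 10.2%, and 9.52% and 11.3%. At an unadjusted p under 0.05 there were 1 and 2 of the 7, against 31.6% and 36.2% of all genes. Their median log2 fold changes were -0.16 and -0.10. The most abundant of them, S100a11, was at 496 and 424 CPM in control KD against 426 and 373 in GSTM1 KD at baseline, with a log2 fold change of -0.20 ± 0.14, and S100a6 had -0.31 ± 0.23.

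In the fit without a replicate block, edgeR called 0 of the 10 genes higher with the knockdown, against 4.6% of all genes tested at baseline and 7.26% after TNF-α. At an unadjusted p under 0.05, 3 of the 10 passed in each state, S100b included, against 31.6% of all genes at baseline and 36.2% after TNF-α. DESeq2 called 2 in each state, S100b lower and Glul higher, against 10.2% of all genes lower and 8.26% higher at baseline and 11.3% and 9.52% after TNF-α. With the replicate number as a block, edgeR called 6 of the 10 higher and 2 lower at baseline, against 15.7% and 15.9% of all genes, and 5 higher and 2 lower after TNF-α, against 14.1% and 15.3%. Same-numbered libraries deviated together in every pair of groups, although no label says that a number marks a shared culture. In 6 of the 10, Gfap, Aldh1l1, Aldoc, Glul, Slc1a2 and Gja1, both GSTM1 KD libraries lay above both control KD libraries in both states, and in 2, S100b and Sox9, both lay below. Of all 15332 genes, 26% separated upwards and 24.3% downwards in both states by the same rule. The median log2 fold change of the list was 0.51 at baseline and 0.28 after TNF-α, against 0.00 and -0.01 over all genes tested. With neither control KD replicate 1 library in the fit, the medians were 0.23 and 0.08. For Gfap, Aldh1l1, Aldoc and Slc1a2 the gap between the knockdowns was smaller than that between the control KD replicates in both states.

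**Figure D2:**
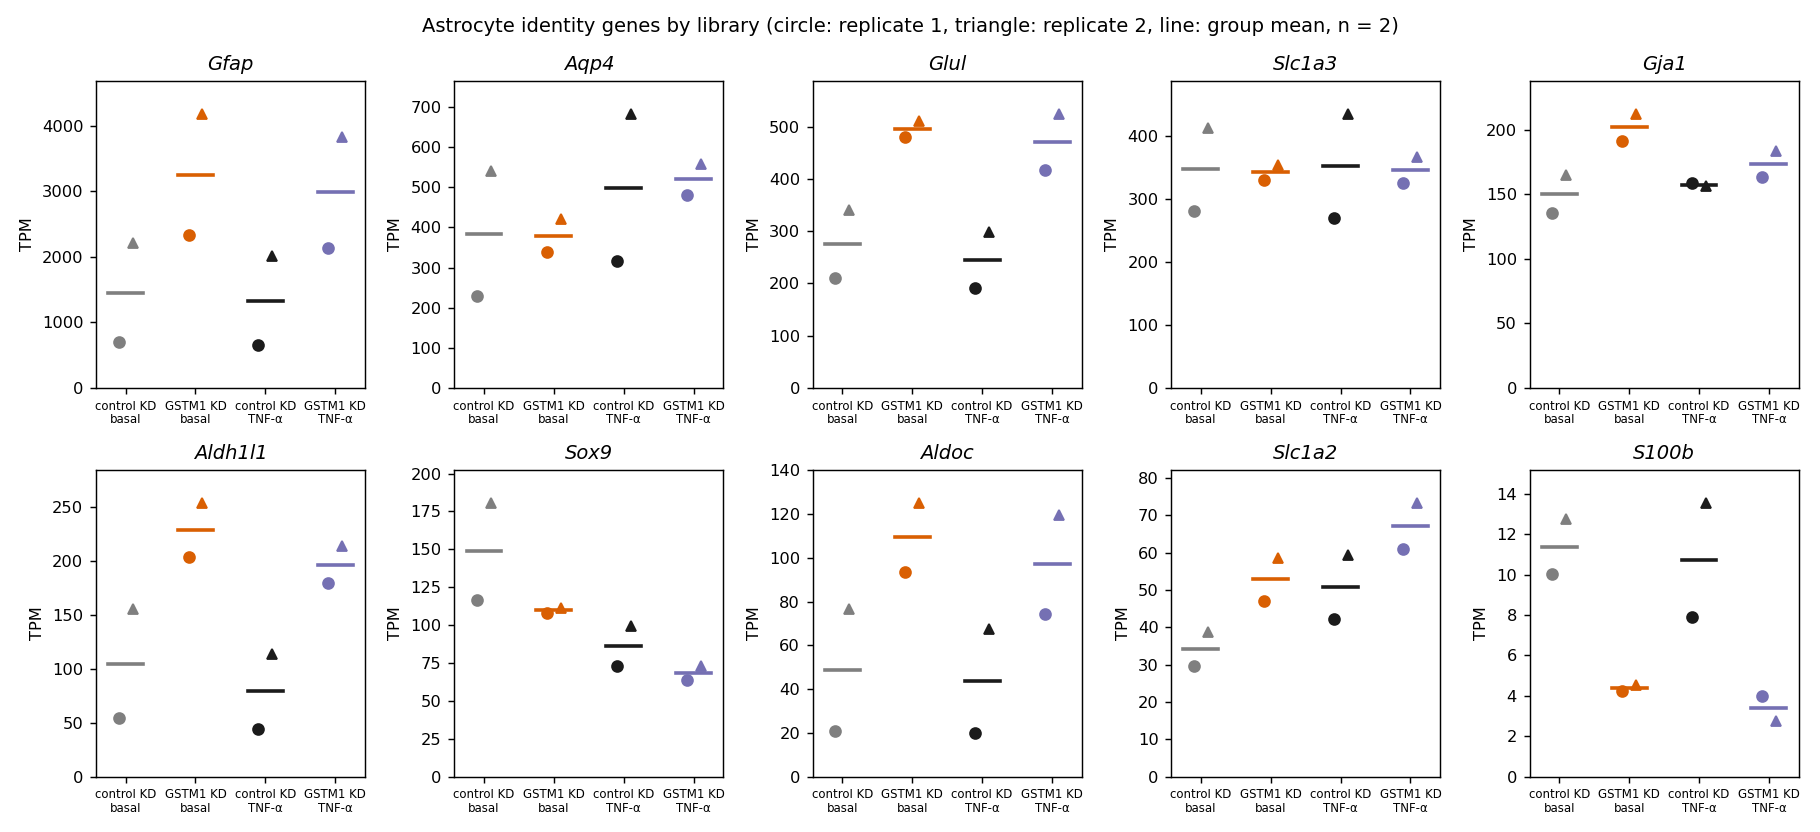
Each panel shows the TPM of a gene (vertical axis, from 0) in the 8 libraries, by group (horizontal axis), with circles for replicate 1, triangles for replicate 2 and a line for the mean of 2. S100b is lower in all GSTM1 KD libraries, and in Gfap, Aldh1l1 and Aldoc control KD replicate 1 lies far below replicate 2.

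Glul, at chr1:153899944-153909723 (plus strand), came nearest to the threshold among these. It is overlapped by Mir8114 on the same strand and Teddm2 on the opposite strand. Its level was 210.1 and 341 TPM in control KD against 481 and 511 TPM in GSTM1 KD at baseline, and 191 and 299 against 417 and 525 TPM after TNF-α. The groups did not overlap in either state. The log2 fold change was 0.78 ± 0.23 at baseline (edgeR adjusted p = 0.0875) and 0.88 ± 0.24 after TNF-α (adjusted p = 0.0646). DESeq2 gave adjusted p = 0.00916 and 0.00221 for it. Without control KD replicate 1 the log2 fold change was 0.47 (adjusted p = 0.046) and 0.57 (adjusted p = 0.0423), with the spread from the GSTM1 KD pair alone. Without control KD replicate 2 it was 1.15 (adjusted p = 0.000451) and 1.26 (adjusted p = 0.00132). In the fit of all groups with neither control KD replicate 1 library it was 0.45 (adjusted p = 0.0882) and 0.57 (adjusted p = 0.0492), so that the call was lost at baseline. The replicate block gave 0.82 (adjusted p = 0.000564) and 0.91 (adjusted p = 0.00307).

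Aldh1l1 lies at chr6:90486427-90600203 (plus strand) and is overlapped by Gm45901 on the same strand and Gm15756 on the opposite strand, Gfap at chr11:102887336-102900912 (minus strand) and Aldoc at chr11:78322968-78327781 (plus strand). Aldh1l1 had 54.4 and 155 TPM in control KD against 203 and 254 TPM in GSTM1 KD at baseline. After TNF-α it had 44.3 and 113 TPM against 179 and 214 TPM. The log2 fold changes were 1.05 ± 0.46 (adjusted p = 0.187) and 1.22 ± 0.42 (adjusted p = 0.102), and 0.48 and 0.69 without control KD replicate 1, where the control arm is a single library (adjusted p = 0.0115 after TNF-α). Gfap, whose levels are given above, stood 1.10 ± 0.56 higher in GSTM1 KD on the log2 scale without stimulation and 1.08 ± 0.55 higher after it (adjusted p = 0.234 and 0.218), and 0.50 and 0.48 higher without that replicate. Aldoc ran from 21.1 and 76.7 TPM in control KD to 93.4 and 125 TPM in GSTM1 KD at baseline, and from 19.7 and 67.4 to 74.5 and 119 TPM after TNF-α. Its log2 fold changes were 1.11 ± 0.55 and 1.10 ± 0.56 (adjusted p = 0.227 and 0.219), and 0.46 and 0.45 without control KD replicate 1. Leaving out control KD replicate 2 in its place gave about 2 or more for all of them, from 1.98 for Aldh1l1 at baseline to 2.28 for Aldoc. The control arm was again a single library in these fits. With the replicate block the same 3 genes were called higher in both states, Gfap by 1.26 and 1.25 (adjusted p = 6.6e-05 and 0.00547), Aldoc by 1.34 and 1.299 (adjusted p = 0.000305 and 0.00719) and Aldh1l1 by 1.23 and 1.37 (adjusted p = 0.000326 and 0.00697). The size of the difference thus depended on which control KD library was used, while the direction of these 3 genes did not.

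**Figure D3:**
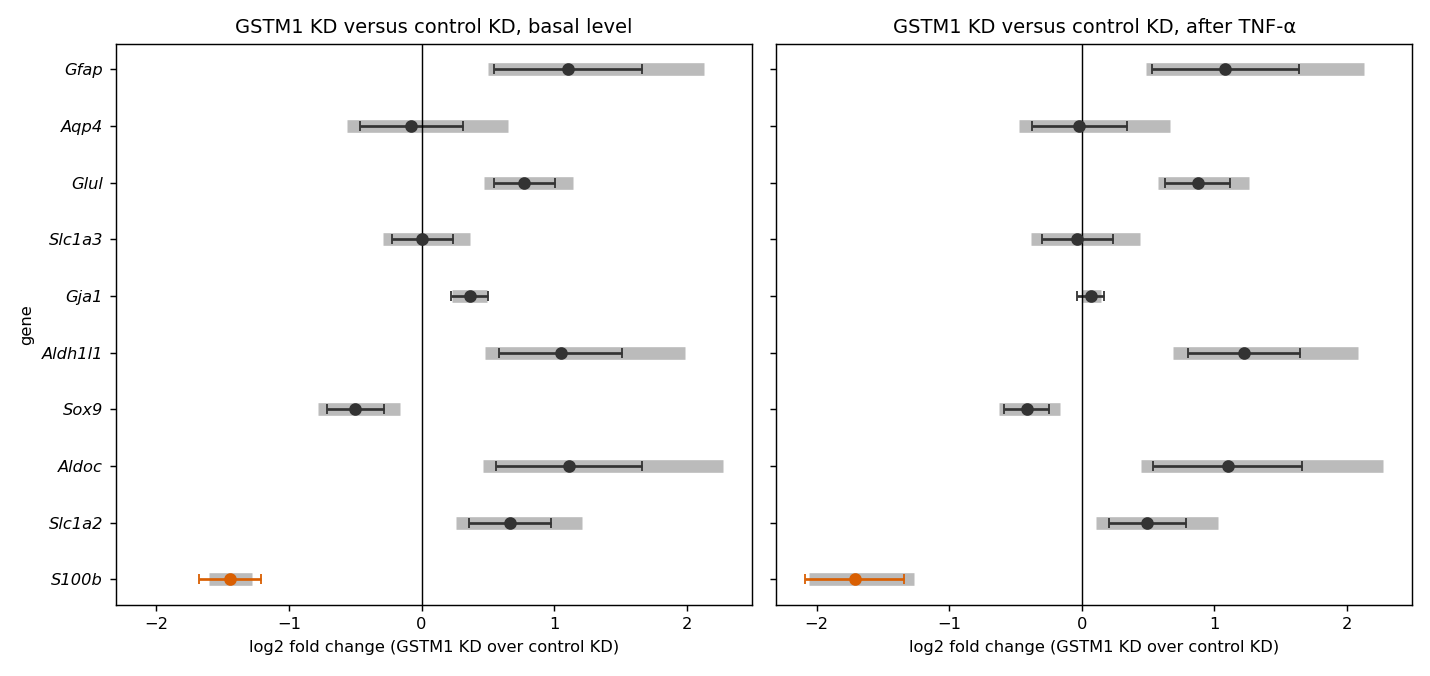
Points give the log2 fold change of GSTM1 KD over control KD (horizontal axis) for each gene, with SE bars, at baseline and after TNF-α. Orange marks genes with an edgeR adjusted p under 0.05, S100b in both panels, and grey bands run from the lowest to the highest value when each library was left out in turn. The bands of Gfap and Aldoc reach from near 0.5 to above 2.

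The glutamate transporters differed from each other. Slc1a3 overlapped between knockdowns in both states, with 280.4 and 413 TPM in control KD against 329.9 and 354 TPM in GSTM1 KD at baseline, and 269 and 435 against 325 and 367 TPM after TNF-α. Its log2 fold changes were 0.01 ± 0.23 and -0.03 ± 0.27. Without control KD replicate 1 they were -0.29 and -0.39, and without replicate 2 0.37 and 0.44. Slc1a2 was at 29.5 and 38.7 TPM in control KD against 47.1 and 58.6 TPM in GSTM1 KD at baseline, and at 42.1 and 59.2 against 60.9 and 73.4 TPM after TNF-α. The groups did not overlap, but after TNF-α by a narrow margin. Its log2 fold changes in counts were 0.67 ± 0.31 (adjusted p = 0.206) and 0.49 ± 0.29 (adjusted p = 0.272), and 0.26 and 0.11 without control KD replicate 1. Without control KD replicate 2, with a single control library left in each state, they were 1.21 (adjusted p = 0.000442) and 1.02 (adjusted p = 0.00137). The replicate block gave 0.73 (adjusted p = 0.00121) and 0.56 (adjusted p = 0.0402).

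Slc1a2 differed from the rest of the list also in the length that the authors' quantifier assigned to it. The effective length, the mean transcript length weighted by isoform abundance and reduced by fragment size, was 5812 and 5531 bases in the control KD replicate 1 libraries and 7277 to 8657 bases in the other 6. The gene lies at chr2:102658659-102790784 (GRCm38, plus strand), has 12 annotated transcripts of 193 to 11595 bases, and is overlapped on the opposite strand by Gm13872. Slc1a3 also had its shortest effective lengths in control KD replicate 1, 3402 and 3444 bases against 3685 to 3823 in the others, whereas Gfap stayed between 2387 and 2408 bases. With the effective lengths as offsets in the count model, the log2 fold change of Slc1a2 was 0.58 at baseline and 0.35 after TNF-α.

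**Figure D4:**
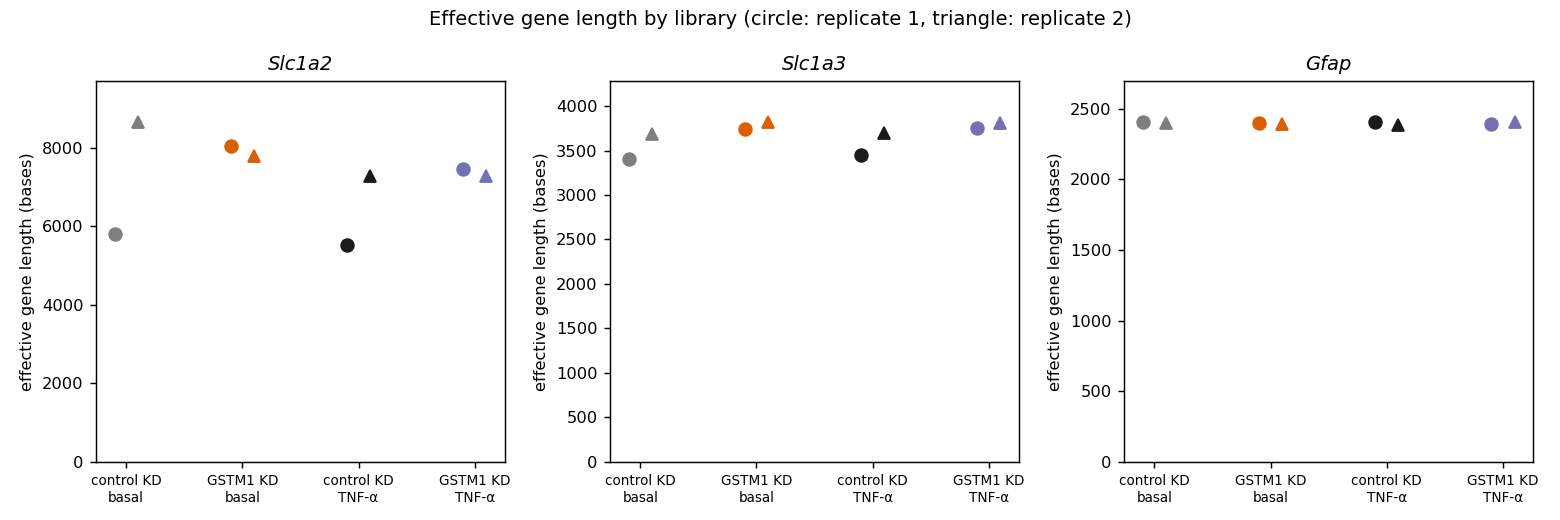
The effective gene length in bases (vertical axis, from 0) is shown for Slc1a2, Slc1a3 and Gfap in each library by group, with circles for replicate 1 and triangles for replicate 2. Control KD replicate 1 lies lowest for Slc1a2 (5812 and 5531 bases) and for Slc1a3, and Gfap is level across libraries.

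Gja1 had the narrowest range of TPM over the 8 libraries, 1.57-fold from lowest to highest. Its level was 135 and 165 TPM in control KD against 192 and 212 TPM in GSTM1 KD at baseline, and 158 and 157 against 163 and 184 TPM after TNF-α. The log2 fold changes were 0.36 ± 0.14 (adjusted p = 0.145) and 0.07 ± 0.10 (adjusted p = 0.685), and with the replicate block Gja1 was called higher at baseline (adjusted p = 0.0208). Aqp4 overlapped between knockdowns in both states, with 229.6 and 540.0 TPM in control KD against 339 and 421 TPM in GSTM1 KD at baseline, and 315 and 683 against 482 and 559 TPM after TNF-α. Its log2 fold changes were -0.08 ± 0.39 and -0.02 ± 0.36, and their sign turned with the control library that was left out: -0.57 and -0.48 without replicate 1, 0.65 and 0.66 without replicate 2.

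Sox9, at chr11:112782224-112787760 (plus strand), was the only gene besides S100b with both GSTM1 KD libraries below both control KD libraries. It was at 116 and 181 TPM in control KD against 108 and 111 TPM in GSTM1 KD at baseline, and at 73.0 and 99.2 against 63.5 and 72.7 TPM after TNF-α, so that the nearest libraries almost met. The log2 fold changes were -0.50 ± 0.21 (adjusted p = 0.176) and -0.41 ± 0.17 (adjusted p = 0.144). Without control KD replicate 1 it was -0.78 (adjusted p = 0.00545) and -0.63 (adjusted p = 0.0111), with the spread from the GSTM1 KD pair alone, and without control KD replicate 2 it was -0.16 in both states and not called. The replicate block gave -0.47 (adjusted p = 0.0164) and -0.40 (adjusted p = 0.0327).

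Over the 8 libraries, Gfap, Aldoc, Aldh1l1 and Glul moved together, as a description of points that share 4 groups and the low control KD replicate 1. Pearson's r of log2 CPM was 0.99 between Gfap and Aldoc, 0.98 between Aldh1l1 and Aldoc and 0.98 between Aldh1l1 and Glul. S100b ran against Glul with an r of -0.71, and Sox9 was unrelated to Gfap with 0.01. The genes outside the list most like each member, by the same measure over 8 libraries, were Vit, Mapt and Sulf2 for Gfap, Man2a2, Agbl3 and Acad11 for Aldoc, Plcd4, Wdr35 and Gpr161 for Aldh1l1, and Cntf, Cyb5r3 and Ephx1 for Glul. For S100b they included Armcx3 and Plekhb2, for Aqp4 Stat3, Itgb8 and Dnajc10, for Slc1a3 Cspg5, Ecm1 and Timp2, and for Slc1a2 Adgrb2, Fhad1 and RP24-443D19.8. For Gja1 they were Dnajc27, Ankrd52 and RP23-41J14.6, and for Sox9 Slc2a3, Zfp703 and Limk2. The r of the genes named lay between 0.95 and 1.00.

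Because several of these genes moved together, their promoters were read for short motifs of general factors and of factors known in glia. The stretch read ran from 250 bases before to 50 bases after the start in RefSeq (GRCm38.p6). The table held 9 starts for 8 of the genes: Gfap, S100b, Slc1a2, Slc1a3, Aldh1l1, Gja1, Glul and Aldoc, the last with 2 starts. The letters TTCNNNGAA, bound by STAT factors and the same on both strands, were found for 3 genes, Gfap, Aldoc and Slc1a3, and in 8.3% of all 32851 promoters. The matching stretches are shown with the match in capitals, each 30 bases long and read 5′ to 3′ along the gene. They lie at chr11:102897183-102897212 (Gfap, minus strand), chr11:78324105-78324134 (Aldoc, plus strand) and chr15:8710884-8710913 (Slc1a3, minus strand), with the first matching base at position -2, -83 and -96 relative to the start.
Gfap: atgggggtgcTTCCAGGAAgtcaggggcag
Aldoc: tggcagcagtTTCCAGGAAgacctgtggct
Slc1a3: ttcaggatccTTCCAAGAAatttcagttat
The Gfap and Aldoc matches share all their 9 letters, and the same Aldoc promoter held another match at position -124. The AP-1 letters TGANTCA were found for Gja1 alone, against 7.81% of all promoters, at position -19 in chr10:56377270-56377299 (plus strand).
Gja1: ctccttccagtTGAGTCAgtggcttgaaac
CCAAT, read on either strand, was found for Glul, Aldh1l1, S100b and Slc1a3, and in 37.4% of all promoters. TTGGC, which overlaps CCAAT in some matches and is the half-site of nuclear factor I, was found for Glul, Slc1a2, S100b and Aldoc, and in 46.7% of all. The letters AACAAT of SOX factors were in none of the 9 and in 10.7% of all, and the kappa B consensus in none and in 8.46%. GGGCGG, the letters of SP1, was found for Glul, Aldh1l1, Aldoc and Slc1a3, and in 35.7% of all. TGACG, the half-site of the cAMP response element, was found for Gja1 and Slc1a3, and in 20.8% of all. TATAAA was found for Slc1a3, and in 13.6% of all. The full site of nuclear factor I was in none and in 0.0365% of all. These are matches of letters only.

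By edgeR, 0 of the 10 genes were called in control KD, against 2.1% of 15332 genes called higher and 0.528% lower, and 0 of 10 in GSTM1 KD, against 2.35% higher and 0.294% lower, counts near that background. Standard errors reached 0.69 on the log2 scale, so an absence of change was not shown. In each knockdown 1 of the 10 had an unadjusted p under 0.05, which was Sox9, against 12.5% of all genes in control KD and 10.9% in GSTM1 KD. DESeq2 called 1 in control KD, Sox9 as lower, against 1.11% of all genes lower and 3.16% higher, and 0 in GSTM1 KD, against 0.68% and 3.07%. The list had a median log2 fold change of -0.08 in control KD cells, of -0.12 in GSTM1 KD cells, against -0.02 and -0.01 over all genes.

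Sox9 was lower after TNF-α in all 4 stimulated libraries than in any basal library of the same knockdown, with the levels given above. Its log2 fold change was -0.76 ± 0.22 in control KD (unadjusted p = 0.0111, adjusted p = 0.175) and -0.65 ± 0.22 in GSTM1 KD (unadjusted p = 0.0222, adjusted p = 0.297). DESeq2 gave it adjusted p = 0.0321 in control KD, and a fit of the 4 libraries of each knockdown alone gave adjusted p = 0.536 in control KD and 0.0133 in GSTM1 KD. Leaving out single libraries moved the control KD value from -1.04 to -0.41, with adjusted p from 0.0521 to 0.558. With the replicate block Sox9 was called lower in both knockdowns (adjusted p = 0.0233 and 0.0435), against 2.19% of all genes lower and 4.25% higher in control KD cells and against 1.27% lower and 4% higher in GSTM1 KD cells. With neither control KD replicate 1 library in the fit it was also called lower in both, at -0.82 (adjusted p = 0.0296) and -0.65 (adjusted p = 0.013), against 0.503% lower and 1.55% higher and 1.1% and 3.31% of all genes. Gfap had -0.09 ± 0.68 in both knockdowns, and leaving out single libraries moved it between -1.13 and 0.95 in control KD. Aqp4 had 0.41 ± 0.45 in control KD and 0.49 ± 0.45 in GSTM1 KD. Slc1a2 had 0.43 ± 0.37 and 0.28 ± 0.37, Gja1 0.09 ± 0.12 and -0.18 ± 0.12, and S100b -0.07 ± 0.31 and -0.32 ± 0.34. The other 4 genes lay between -0.37 and 0.07 in control KD and between -0.18 and 0.05 in GSTM1 KD. In GSTM1 KD, the stimulated libraries lay above the basal ones in CPM for Aqp4 and Slc1a2. They lay below them for S100b, Gja1 and Sox9. The share of all genes that separate in this way with TNF-α was not computed. The TNF-α response of the 10 genes was also set against itself in the 2 knockdowns. The difference of the responses was called for 0 of the 10 and for 0% of the 15332 genes by edgeR, with 0 and 295 genes at an unadjusted p under 0.05. DESeq2 called 0 of the 10 and 27 genes in all. It ran from -0.27 ± 0.17 for Gja1 to 0.20 ± 0.77 for Aldh1l1 on the log2 scale.

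Other genes with the same tasks were read from lists. The background for the edgeR knockdown calls in every list below, cell types included, is 4.6% of all genes higher and 5.62% lower at baseline. After TNF-α it is 7.26% higher and 8.92% lower. Among 28 other astrocyte markers, 26 were tested at baseline and edgeR called 3 higher in GSTM1 KD, against 4.6% of all genes. After TNF-α 2 of 25 were higher, against 7.26% of all genes, and edgeR called 0 lower in either state. DESeq2 called 5 of them higher at baseline and 8 after TNF-α, with 0 lower, against 8.26% and 9.52% of all genes called higher by that tool. Their median log2 fold changes were 0.44 and 0.42, against 0.00 and -0.01 for all genes. With neither control KD replicate 1 library in the fit, 4 of 26 were higher and 3 lower in each state (Ttyh1, Plpp3 and Fabp7), against 4.76% higher and 8.47% lower of all genes at baseline and 6.02% and 9.41% after TNF-α, and the medians were 0.06 and 0.09. In that fit Clu lost its call after TNF-α (0.93, adjusted p = 0.062) and Grin2c at baseline (adjusted p = 0.105). Clu, the secreted chaperone clusterin, rose in both states, from 352 and 450.1 CPM in control KD to 850.5 and 1191 in GSTM1 KD at baseline, a log2 fold change of 1.35 ± 0.22 (adjusted p = 0.0263). Slc39a12, a zinc transporter, rose from 13.3 and 35.2 to 87.8 and 125 CPM at baseline (2.14 ± 0.46, adjusted p = 0.0435). Htra1, a secreted protease, rose after TNF-α by 1.00 ± 0.21 (adjusted p = 0.0371). Grin2c, a subunit of NMDA receptors, was also called at baseline, but its level stayed under 1 CPM in every library. The abundant markers Apoe, an apolipoprotein, and Cst3, the protease inhibitor cystatin C, had 0.42 ± 0.28 and 0.30 ± 0.20 at baseline, and neither was called.

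Around the glutamate transporters and Glul, 12 genes of glutamate and glutamine handling were tested in each state. The aspartate aminotransferase Got1 (0.61 ± 0.10, adjusted p = 0.029) and Gldc of the glycine cleavage system (0.87 ± 0.16, adjusted p = 0.0327) rose at baseline, and Gldc alone after TNF-α (0.95 ± 0.16, adjusted p = 0.0217). With neither control KD replicate 1 library in the fit, the call of Gldc was lost in both states (0.82, adjusted p = 0.0751, and 0.85, adjusted p = 0.0654), while that of Got1 held (adjusted p = 0.0208). In that fit Glud1, glutamate dehydrogenase, was called lower in both states (-0.58, adjusted p = 0.0195, and -0.57, adjusted p = 0.0186), where the fit of the 4 libraries of each state had -0.40 ± 0.15 and -0.39 ± 0.15 without a call. Around Aqp4, 14 genes of potassium, water and end-foot function were tested. The potassium channel Kcnk1 rose in both states (0.99 ± 0.19 and 1.06 ± 0.16). After TNF-α Dtna, which encodes dystrobrevin α, rose by 0.52 ± 0.11. The potassium channel Kcnj10 had -0.35 ± 0.50 and -0.42 ± 0.52, and it was called lower with neither control KD replicate 1 library in the fit (-0.98, adjusted p = 0.015, and -1.04, adjusted p = 0.0118). Around Gja1, 11 genes of connexins and of lactate or glucose transport and storage were tested, and the same 3 were called in both states, 2 higher and 1 lower. Of all genes, 4.6% were called higher and 5.62% lower at baseline, and 7.26% and 8.92% after TNF-α. The lactate transporter Slc16a1 rose by 1.17 ± 0.25 and 1.15 ± 0.25, the lactate dehydrogenase subunit Ldhb by 1.20 ± 0.26 and 1.14 ± 0.28, and the glycogen synthase Gys1 fell by 0.59 ± 0.10 and 0.69 ± 0.10. Without both control KD replicate 1 libraries, Ldhb lost its call after TNF-α (0.79, adjusted p = 0.0535).

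Around Aldoc, 0 of 14 glycolysis genes were called at baseline by edgeR, against 4.6% of all genes higher and 5.62% lower. At an unadjusted p under 0.05 there were 4, against 31.6% of all genes. DESeq2 called 1 higher, against 8.26% of all genes. The most abundant, Gapdh and Eno1, had -0.24 ± 0.13 and -0.05 ± 0.13. After TNF-α only the hexokinase Hk2 was lower (-0.47 ± 0.09, adjusted p = 0.0301), against 8.92% of all genes called lower. Around Aldh1l1, 13 folate enzymes were tested. Aldh1l2, its mitochondrial relative, went from 14.6 and 11.1 CPM in control KD to 5.45 and 4.86 in GSTM1 KD at baseline, and it fell by 1.32 ± 0.22 and 1.25 ± 0.29 in the 2 states (adjusted p = 0.0282 and 0.042). Around Gfap, 6 genes of intermediate filaments and their linkers were tested. The linker Plec, plectin, fell by 1.28 ± 0.21 and 1.42 ± 0.11, while Vim, the vimentin that copolymerises with Gfap, had 0.01 ± 0.19 and 0.03 ± 0.20. The median log2 fold change of the 6 genes was -0.25 and -0.28. With neither control KD replicate 1 library in the fit it was -0.38 in both states. In that fit Plec had -1.55 and -1.45, and Vim -0.20 and -0.18. Around Sox9, 17 gliogenic transcription factors were tested. Nfix rose (0.61 ± 0.14 and 0.76 ± 0.12), and Nfib (-0.84 ± 0.13 and -0.68 ± 0.15) and Sox8, of the same family as Sox9, fell (-1.06 ± 0.14 and -1.37 ± 0.15) in both states. The Notch target Hes1 fell at baseline (-0.76 ± 0.15), and Id4 and Rorb rose after TNF-α (0.97 ± 0.15 and 0.80 ± 0.17). With neither control KD replicate 1 library in the fit, 0 of these 17 factors were called higher and 6 lower at baseline, against 4.76% and 8.47% of all genes, and 2 higher and 5 lower after TNF-α, against 6.02% and 9.41%. There Nfix (0.48, adjusted p = 0.0536) and Hes1 (-0.75, adjusted p = 0.0747) lost their calls at baseline and Rorb (0.61, adjusted p = 0.0702) after TNF-α. With TNF-α the only gene of these pathway lists that edgeR called was Pou3f2, a neural transcription factor, lower in control KD (-0.59 ± 0.10, adjusted p = 0.0334). DESeq2 called 3 gliogenic factors and 1 other astrocyte marker lower and 1 glycolysis gene and 1 intermediate filament gene higher in control KD. In GSTM1 KD it called 1 end-foot gene and 1 gliogenic factor lower and 1 intermediate filament gene higher.

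The labelled cell type was held against marker lists. The summed CPM of the 10 astrocyte genes was 3231 to 7207 in control KD basal, 6571 to 9607 in GSTM1 KD basal, 3317 to 7340 in control KD TNF-α and 6726 to 9519 in GSTM1 KD TNF-α. Microglial markers, 14 genes, summed to 48.0 to 60.7 CPM over all libraries, with P2ry12 at 3 counts or fewer in each. A list of 8 pericyte or smooth muscle genes summed to 5564 to 6397 CPM in control KD and 2738 to 3373 in GSTM1 KD at baseline, and to 5280.4 to 5289 against 2566 to 3113 after TNF-α. In it 2 of 6 tested genes fell in both states, the contractile genes Acta2 (-1.02 ± 0.17 and -0.93 ± 0.15) and Tagln (-0.98 ± 0.19 and -1.01 ± 0.16), and these made up nearly all of the sum. The median log2 fold change of the list was -0.01 and 0.07. With neither control KD replicate 1 library in the fit it was -0.38 and -0.19. In that fit 3 and 2 of the 6 genes were called lower, against 8.47% and 9.41% of all genes. Rgs5, a pericyte marker at 0.42 to 3.62 CPM, had 1.64 ± 0.52 and 1.55 ± 0.51 (adjusted p = 0.1004 and 0.0916), and the smooth muscle myosin Myh11 had 0.09 ± 0.46 and 0.24 ± 0.36. The pericyte markers Kcnj8 and Abcc9 were at 3 counts or fewer in every library. The 12 oligodendrocyte lineage genes summed to 710.1 to 841 against 609 to 615 CPM at baseline and to 620.2 to 734 against 537 to 543 after TNF-α, with 1 and 2 of 7 tested genes lower, and Mog and Mag at 3 counts or fewer throughout.

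The fibroblast or meningeal list of 12 genes, led by Fn1 and Thy1, summed to 2522 to 3311 CPM over all libraries, with 1 of 10 tested genes higher and 1 lower at baseline and 2 higher and 2 lower after TNF-α. The endothelial list of 8 genes, led by Flt1 and Cdh5, summed to 18.5 to 19.2 CPM in control KD and 10.1 to 12.6 in GSTM1 KD at baseline, and to 21.0 to 27.8 against 14.1 to 19.8 after TNF-α. The list of 9 neural progenitor and cycling genes, led by Nes and Sox2, had a lower summed level in GSTM1 KD, at 1357 to 1458 against 1620.0 to 1937 CPM at baseline and 1274 to 1362 against 1491.5 to 1791 after TNF-α. Nes alone, at 792 to 1313 CPM, made up most of that sum. The median log2 fold change of the 9 genes was 0.05 and 0.04. The only gene edgeR called in the fit of each state was Prom1, which was higher, by 1.07 ± 0.20 (adjusted p = 0.0325) and 0.89 ± 0.12 (adjusted p = 0.0161). With neither control KD replicate 1 library in the fit, the median was -0.01 and -0.09. There Nes had -0.62 and -0.61, Sox2 -0.59 and -0.54, and Prom1 0.84 and 0.80. The neuronal list of 12 genes, led by Map2 and Stmn2, had a higher summed level, at 458 to 505 against 419 to 428 CPM at baseline and 428 to 481 against 397 to 399.8 after TNF-α. Map2 alone, at 219 to 287 CPM, made up most of that sum. Its 5 tested genes had a median log2 fold change of 0.18 and 0.04, with 0 called by edgeR. In GSTM1 KD against control KD, the ependymal list, led by Foxj1 and Rsph1, summed to 160.1 to 177 against 117 to 187 CPM at baseline. After TNF-α these sums separated, at 148 to 166 against 103 to 128 CPM. The median log2 fold change of its 7 tested genes was 0.89 and 0.79. It was 0.29 and 0.22 with neither control KD replicate 1 library in the fit. The choroid plexus list (Otx2 and Folr1) summed to 4.12 to 5.51 against 3.28 to 3.48 CPM at baseline. After TNF-α it summed to 3.603 to 5.63 against 2.498 to 2.95 CPM. Its 3 tested genes had a median of -0.405 and 0.15. In each of these 5 lists edgeR called at most 1 gene with the knockdown in the fit of either state. DESeq2 called 2 endothelial genes lower at baseline. Of the progenitor genes it called 1 higher and 1 lower at baseline and 1 higher and 2 lower after TNF-α. The part of these other cells in the values above was not tested. In bulk RNA, fewer cells of a type and less RNA per cell cannot be told apart.

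**Figure D5:**
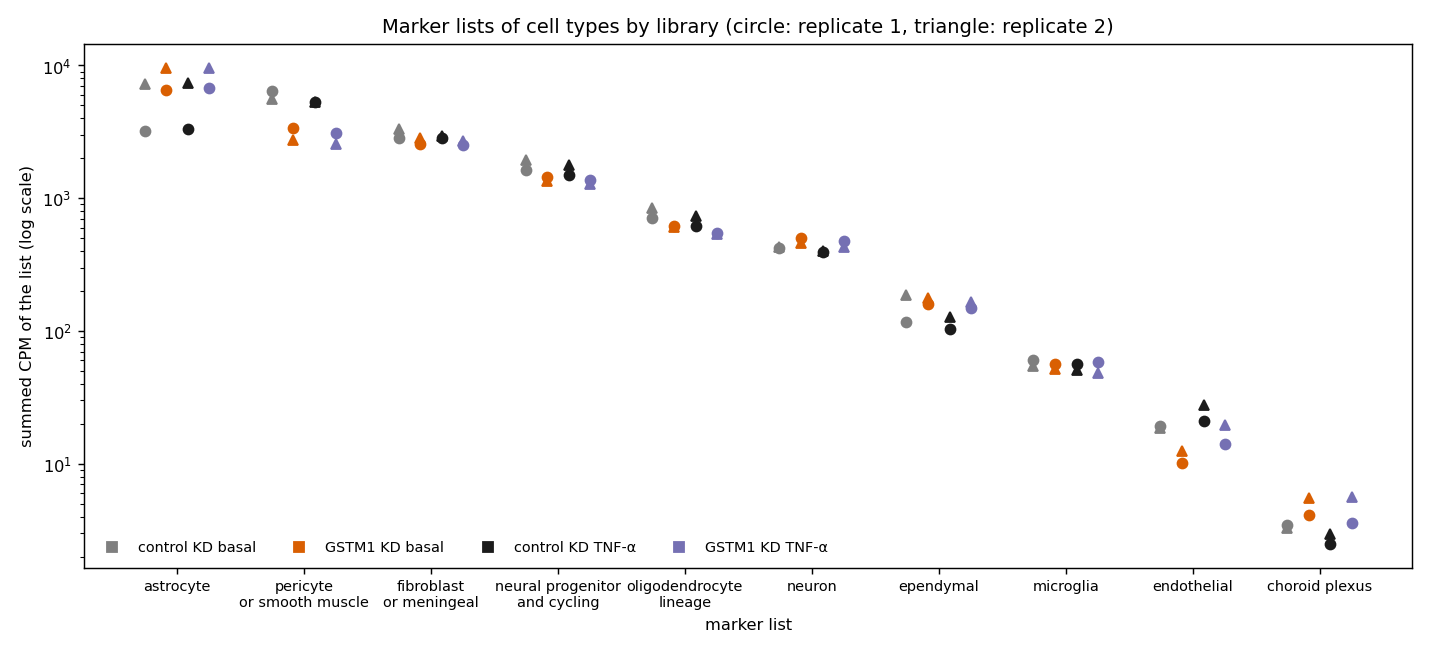
The summed CPM of each marker list (vertical axis, log scale) is plotted for the 8 libraries by group, with circles for replicate 1 and triangles for replicate 2. The astrocyte list is lowest in control KD replicate 1, at 3231 and 3317 CPM, and the pericyte or smooth muscle list is lower in all 4 GSTM1 KD libraries than in the control KD libraries.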

How the data were processed

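RNA-seq was performed on 8 libraries. According to the submitters' processing notes and the study's methods, the authors mapped reads to GRCm38 with STAR 2.5.4b and deposited, per gene, expected counts, TPM values and effective lengths from RSEM 1.3.0 (annotation release not given in the sources used here). FPKM values were not used. Expected counts were rounded to whole numbers, filtered with filterByExpr, scaled by TMM and tested with the edgeR 4.0.16 quasi-likelihood F-test in R 4.3.3, with Benjamini-Hochberg adjustment over all genes tested and a threshold of 0.05. Knockdown comparisons used the 4 libraries of a state. TNF-α responses and their difference used all 8. The SE is the log2 fold change divided by the root of F. DESeq2 1.42.0 was an alternative, as were DESeq2 size factors, library sizes alone, no filter, a replicate block, effective lengths as offsets, other sets of libraries and leaving out each library. On simulated counts with 200 changed genes, edgeR recovered 141 of them for the knockdown at baseline and 134 with TNF-α. Of the 100 4-fold changes among them it recovered 85 and 80. It found a smaller share of the remaining, smaller changes, which were about the size seen for Gfap, Aldoc and Aldh1l1.

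Group comparisons with 2 libraries each cannot pass 0.05 in an exact permutation test, so none was used. CPM values are TMM-scaled, and correlations used log2 CPM with a prior count of 2. Coordinates and transcripts came from GENCODE, of the same build, and promoters from RefSeq (GRCm38.p6). In every group the replicates differed by more than sampling noise. The 10 genes, the gene lists and the tests were chosen with earlier results of these data known. Named in the text are the 10 genes, Gstm1, from each pathway list up to 4 called genes of smallest p per comparison or else the 2 of highest level (not repeated for TNF-α, where these lists held a single call), the called or else the 2 most abundant genes of each cell type list, and the 3 genes most like each member. Rgs5, Myh11, Kcnj8, Abcc9, Mog, Mag and P2ry12 were named after their values were seen. A few genes that this rule would name are not reported here.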

Additional observations from a re-analysis of the deposited data

How the results depend on the processing

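For the knockdown at baseline, 1 of the 10 genes was called, against 1524 of 14899 genes in all. DESeq2 called 2 (2494 genes in all), no filter 7 (3957 of 24716) and the replicate block 8 (4712 of 14899). A fit with neither control KD replicate 1 library, added after seeing the data, called 2 (2050 of 15499). Calls also moved when single libraries were left out, over all genes as well as in the list. Such a fit leaves 1 library in a group, so its calls are not counted here. After TNF-α 1 was called, against 2360 of 14593 genes in all. DESeq2 called 2 (2835 genes in all), library sizes alone 2 (2513 of 14593) and no filter 7 (4540 of 24134). The replicate block called 7 (4302 of 14593) and the added fit 4 (2391 of 15499). Calls moved there too when single libraries were left out. For TNF-α in control KD 0 were called, against 403 of 15332 genes in all. DESeq2 called 1 (738 genes in all), the replicate block 1 (988 of 15332), the added fit 1 (319 of 15499) and no filter 3 (1255 of 26474). In GSTM1 KD 0 were called, against 406 of 15332 genes in all. The replicate block called 1 (808 of 15332) and the added fit 1 (683 of 15499). A fit of the 4 libraries of that knockdown called 1 (691 of 14753) and no filter 2 (1050 of 26474). The cause was not tested. The difference of the TNF-α responses called 0 of the 10 genes under every alternative run. The order of levels kept 2 neighbours apart with CPM per kilobase.

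The following values, none of them called in the fits reported, turned their sign. Turned values were called only without control KD replicate 2, for Aqp4 at baseline (adjusted p = 0.0163) and after TNF-α (adjusted p = 0.0103) and for Slc1a3 after TNF-α (adjusted p = 0.035). For the knockdown, Aqp4 was 0.039 at baseline with the block, and after TNF-α 0.0047 with all 8 libraries, 0.028 with library sizes alone and 0.087 with the block. Slc1a3 at baseline was -0.0034 with DESeq2, -0.069 with effective lengths, -0.021 without the filter and -0.31 in the added fit, and after TNF-α 0.0091 with library sizes alone and 0.020 with the block. For TNF-α in control KD, the added fit gave -0.031 for Gja1 and 0.13 for S100b. Leaving out single libraries moved Aqp4 from -0.57 to 0.65 and from -0.48 to 0.66 with the knockdown and from -0.26 to 1.15 with TNF-α in control KD, and Slc1a3 from -0.29 to 0.37 and from -0.39 to 0.44. With TNF-α it moved Gfap from -1.13 to 0.95 in control KD and from -0.55 to 0.39 in GSTM1 KD, and, in control KD, Gja1 from -0.036 to 0.24, S100b from -0.50 to 0.28 and Slc1a2 from -0.090 to 0.99. The difference of responses for Aldh1l1 ran from -0.76 to 1.04.

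The replicate numbers are not stated to mark a shared culture. Blocked values were set beside the results with these calls already known. Deviations of same-numbered libraries correlated with r of 0.16 to 0.58 over 15332 genes in the 6 pairs of groups, and the block raised calls over all genes from 1524 to 4712 at baseline and from 2360 to 4302 after TNF-α. With the block, Gfap (1.26 and 1.25), Aldoc (1.34 and 1.299), Aldh1l1 (1.23 and 1.37), Glul (0.82 and 0.91) and Slc1a2 (0.73 and 0.56) were called higher and S100b and Sox9 lower with the knockdown in both states, and Gja1 higher at baseline (adjusted p between 6.6e-05 and 0.0402). For TNF-α the block called Sox9 in both knockdowns (adjusted p = 0.0233 and 0.0435). Depth limits S100b most, with 34 to 261 counts per library.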
